A study of Mus musculus with 1989 samples.

Results

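The mitosis and kinetochore genes described here are 55 genes listed by symbol, all of which were present among the 8846 genes of a droplet scRNA-seq table of mouse thymocytes. They comprise 9 cyclins, kinases and kinase subunits, 8 checkpoint and anaphase promoting complex genes, 10 centromere, kinetochore and passenger complex genes, 18 kinesin, spindle and cytokinesis genes, 8 genes of chromosome structure and 2 others, Cdca3 and Arl6ip1. The library held 1993 cells from the thymus of male C57BL/6 mice labelled as 7 weeks old, with no genetic change or treatment named, and 542 thymocytes sorted as DN, DP, CD4 or CD8 from mice of the same strain and age were profiled by scATAC-seq. As no animal is named for any cell, the library and each sort are 1 sample each, and stages are compared without a test. Ratios and shares carry exact 95% intervals that cover counting error only.

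A cell that divides must condense its chromosomes, attach every sister chromatid pair to spindle microtubules through a kinetochore, hold anaphase back until attachment is complete and then cut the cytoplasm in a furrow. Transcripts for this machinery build up through S and G2 phase, and the anaphase promoting complex with Cdc20 then marks cyclin B and securin for destruction. In the thymus, cells that pass the pre-TCR checkpoint divide as immature single positive (ISP) cells and double positive blasts (DPbla), leave the cycle as small double positive cells that rearrange the TCR alpha locus (DPre), and then undergo selection (DPsel) to the CD4 or CD8 single positive (SP) stage.

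Cells just out of division were taken as those with Top2a, the DNA topoisomerase of chromosome condensation, at 0 and Dntt, the polymerase that adds nucleotides at V(D)J junctions, above 1 on the deposited log2 scale. Of all cells with Dntt above 1, 56.5% had Top2a above 0 and were taken as dividing. The other 571 are called postmitotic cells, which names this rule and not a measured state. The deposited values are quantile-normalized, so within every cell they were replaced by their order (lowest value above zero as 1, the next as 2 and so on), and these steps were used as if they were molecule counts after random thinning of all cells to an equal 1300 steps. Dividing cells were deeper before thinning, with a median of 5261 steps per cell against 2008 in postmitotic cells, so a Top2a of 0 was easier to reach in the latter. Postmitotic cells fell mostly into DPre-like clusters, with 344 of 571 cells. The others comprised 72 DPsel-like, 54 SP-like, 48 DN-like, 17 DPbla-like and 12 ISP-like cells, 11 APC-like (antigen presenting) and 4 NCL-like cells and 9 cells of unnamed clusters. The 17 DPbla-like cells came from cluster 9 and the 12 ISP-like cells from cluster 1. These clusters averaged 13.8 and 10.9 steps per cell of 29 S phase genes, so some cells called postmitotic may still be in cycle. Within 0.1 above the Dntt limit, 35 Top2a-zero cells held 4.77 steps per cell of the 54 members other than Top2a, and within 0.1 below it, 34 cells held 4.97. Cells with a single Top2a step and Dntt above 1, which sit just outside the Top2a limit, numbered 146 and held 8.93 such steps per cell.

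Across stages, the members were concentrated in a few dividing clusters. Clusters were built without the members, although genes that move with them still took part. In DPbla-like cluster 11 the 55 members summed to 50.9 steps per cell, and in cluster 14, which was left unnamed because 8 of its 12 leading genes were members, they summed to 49.6. DPbla-like cluster 4 followed with 33, ISP-like cluster 1 with 17.4, DPre-like cluster 10 with 12.7 and DPbla-like cluster 9 with 11.8. The remaining clusters held 3.33 to 5.95 steps per cell. Of the 55 members, 35 reached their highest level in cluster 11, 18 in cluster 14 and 2 in cluster 4. DPbla-like cells together had 4.7 times the member steps of DPre-like cells (95% interval 4.51 to 4.89), and 2.48 times with coarser clusters (resolution 1). The 4.7 leaves out cluster 14 and was 5.13 with it counted as DPbla-like. At resolution 1 no cell was unnamed, and 557 cells were DPre-like instead of 472.

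**Figure D1:**
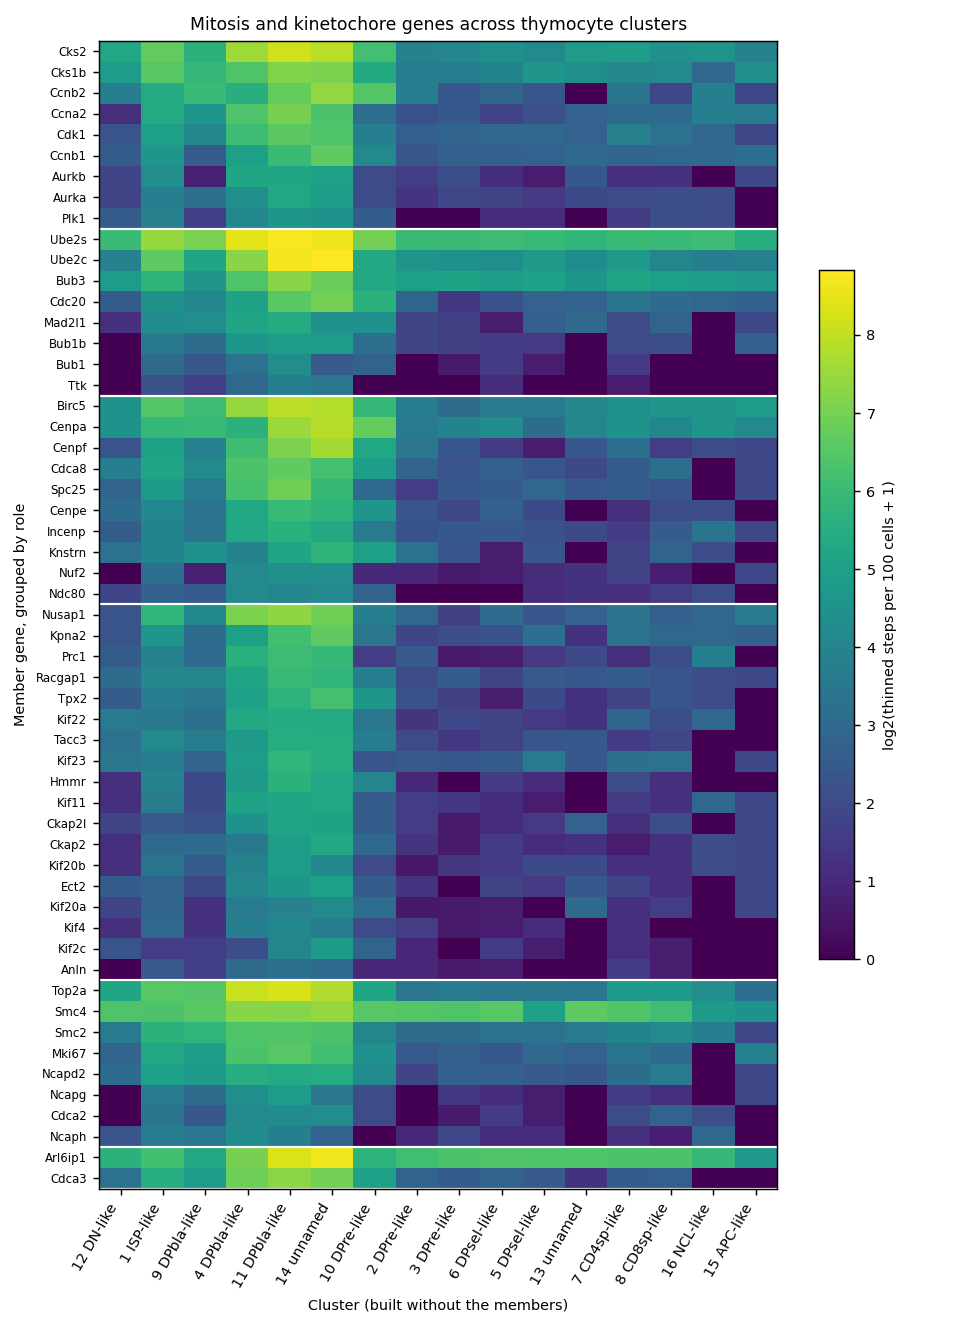
Mean thinned steps of each member, as log2(steps per 100 cells + 1), in each of 16 clusters ordered from DN-like to APC-like, with white lines between role groups. Color is brightest in clusters 11 and 14, and Smc4, Arl6ip1, Ube2s and Bub3 stay visible in every cluster.

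The clusters rich in members differed in which members they held. Clusters 9 and 4 held alike numbers of steps of 29 S phase genes, 13.8 per cell in each. Nusap1, a microtubule bundling protein of the spindle, was at 16.3 steps per 100 cells in cluster 9 against 134 in cluster 4, and Spc25, a subunit of the NDC80 kinetochore complex, at 11.3 against 76.4. Cenpa, the histone H3 variant that marks the centromere, was at 62.4 in cluster 9 and 50.0 in cluster 4. Ccnb2, a B-type cyclin, was at 61.7 against 46.6, and Knstrn, an adaptor at kinetochore and spindle, at 22 against 14.6. As cluster 9 over cluster 4, Nusap1 was at 0.121 (0.0755 to 0.187) and Spc25 at 0.149 (0.0825 to 0.25), while Cenpa at 1.25 (0.919 to 1.7), Ccnb2 at 1.32 (0.968 to 1.81) and Knstrn at 1.51 (0.865 to 2.64) had intervals that hold 1. These 3 were the highest of the 55 and were chosen after their values were seen. Of the 55 members, 46 had an interval below 1 and 0 an interval above it. The share over all genes was not computed, so this count does not show whether the members differ from other genes. Clusters 11 and 14 differed as well, with Spc25 at 120.4 and 59.7, Ccna2, the cyclin of S and G2 phase, at 129 and 82.1, and Cenpf, a large protein of the kinetochore corona, at 134 and 197.

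At the level of single cells, the members separated dividing from other cells only in part. Dividing cells had a median of 14 members other than Top2a above 0 at 1300 steps, with quartiles at 7 and 21, and 85.3% of them held 5 or more. Postmitotic cells had a median of 4, with quartiles at 3 and 5, and 38.2% held 5 or more. The 234 Top2a-zero cells of CD4sp-like and CD8sp-like clusters, taken as an SP-like reference, had a median of 3 with 28.6% at 5 or more, and 54 of them also belonged to the postmitotic group through their Dntt. In the 36 APC-like cells the median was 3 with 19.4% at 5 or more. Members were thus present at a low level in cells of every class. Top2a itself was above 0 in 22.9% (95% interval 16.6 to 30.3%) of CD4sp-like cells, in 23.1% (16.6 to 30.8%) of CD8sp-like cells and in 16.7% (6.37 to 32.8%) of APC-like cells, at median depths of 2234, 2393 and 2407.5 steps. The part of free RNA in droplets in these low levels was not tested.

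**Figure D2:**
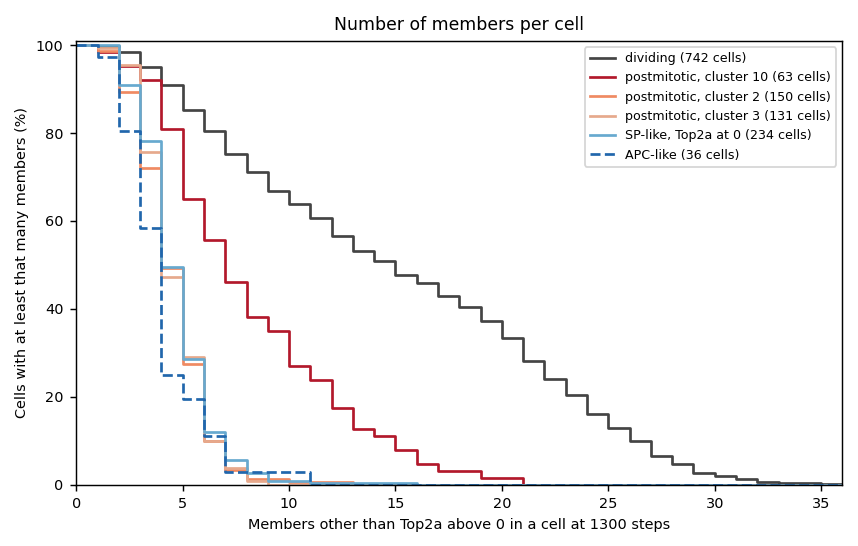
Percent of cells (y axis) with at least the given number of the 54 members other than Top2a above 0 at 1300 steps (x axis), for dividing cells, postmitotic cells of 3 DPre-like clusters, SP-like cells with Top2a at 0 and APC-like cells. Postmitotic cells of cluster 10 lie between dividing cells and the others at 5 members, with 65.1% of cells at 5 or more.

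From dividing to postmitotic cells, nearly all members were lower. Of 52 members with at least 50 steps over both groups, 51 had a ratio at or under 0.5 and none was at or above 2, beside 7.72% of 5439 genes at or under 0.5 and 6.77% at or above 2. The median ratio of the members was 0.176, beside 1.1 over all genes. As the groups were split on Top2a, a gene of the same program, this count describes how closely the members follow Top2a, and many low members reach the minimum only through their steps in dividing cells. Top2a is left out of it, and Anln, a scaffold of the cytokinetic furrow, and Ttk, the checkpoint kinase also called Mps1, fell under the minimum of 50 steps with 37 each.

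The lowest ratio among members with enough steps was that of Aurkb, the kinase of the chromosomal passenger complex, with 6 steps in postmitotic and 151 in dividing cells and a ratio of 0.0516 (0.0187 to 0.115). Cdca2, which targets protein phosphatase 1 to chromatin, followed at 0.0604 (0.0161 to 0.16), then Nusap1 at 0.0709 (0.0477 to 0.102) and Nuf2, another NDC80 subunit, at 0.0712 (0.0189 to 0.19). Kif11, the kinesin that pushes spindle poles apart, was at 0.0812 (0.0364 to 0.159), and Spc25 at 0.0793 (0.0485 to 0.123), with 21 steps against 344. These genes thus came from the passenger complex, the outer kinetochore, the spindle and chromosome structure. Ttk had 0 steps in postmitotic cells, which allows up to 0.525% of them to show a step at this depth and does not limit how many express it. Counting 3 steps over the group as the floor, its level was 9.49-fold lower there than in dividing cells. The exact interval of its ratio, which also covers the counting error of dividing cells, ran from 0 to 0.136.

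The highest ratio was that of Smc4, the core ATPase of condensin, with 119 steps per 100 dividing cells and 85.1 per 100 postmitotic cells and a ratio of 0.714 (0.638 to 0.798). It was the 1 member between the limits. Arl6ip1, a protein that shapes the endoplasmic reticulum, had a ratio of 0.473 (0.419 to 0.533), Bub3, which docks checkpoint proteins at kinetochores, of 0.434 (0.362 to 0.518) and Knstrn of 0.412 (0.294 to 0.567). Cenpa was at 0.294 (0.244 to 0.353) and Ube2s, the ubiquitin chain elongating enzyme of the anaphase promoting complex, at 0.292 (0.261 to 0.326).

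**Figure D3:**
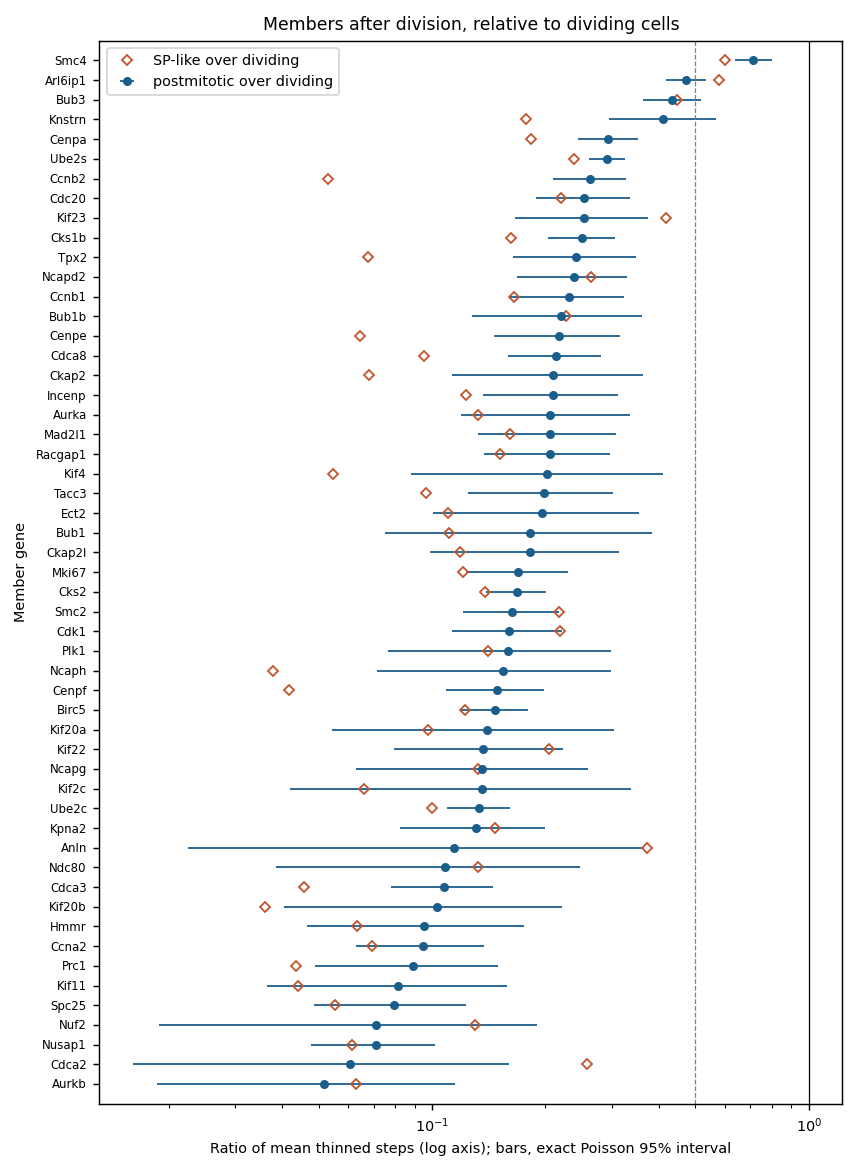
Ratio of mean thinned steps to dividing cells on a log axis for 53 members (Top2a and Ttk, at 0 after division, are left out), for postmitotic cells (filled, with exact Poisson 95% intervals) and SP-like cells with Top2a at 0 (open). For Smc4, Arl6ip1 and Bub3 the open mark lies close to the filled one, and for Ccnb2, Cenpf and Tpx2 it lies far to its left.

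By role, all measured members of 5 of the 6 groups were at or under 0.5. In cyclins and kinases 9 of 9 were, with a median ratio of 0.168. Cks2 and Cks1b, small subunits of cyclin-dependent kinases, were at 139 and 81.8 steps per 100 dividing cells and at 23.3 and 20.5 after division, and Ccnb2 at 64.6 and 17. In the checkpoint and anaphase promoting complex group 7 of 7 measured members were at or under 0.5, with a median of 0.22. Ube2s went from 239.8 to 70.1 steps per 100 cells, Ube2c, which starts ubiquitin chains on cyclin B, from 158 to 21, and Bub3 from 67.8 to 29.4.

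In the centromere, kinetochore and passenger complex group 10 of 10 were at or under 0.5, with a median of 0.179. Birc5, the passenger complex subunit survivin, went from 126 to 18.6 steps per 100 cells, Cenpa from 86.4 to 25.4 and Cenpf from 61.3 to 9.11. The kinesin, spindle and cytokinesis group had 17 of 17 measured members at or under 0.5 and the lowest median of the 6 groups, 0.14. Nusap1 went from 76.5 to 5.43, Kpna2, a nuclear import receptor, from 32.1 to 4.2 and Prc1, which bundles microtubules of the anaphase midzone, from 29.5 to 2.63. Chromosome structure had 6 of 7 at or under 0.5, with Smc2, the partner of Smc4 in condensin, going from 58.9 to 9.63 and Mki67, which coats mitotic chromosomes, from 49.6 to 8.41. Smc2, at a ratio of 0.164 (0.121 to 0.217), therefore lay below Smc4.

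Because a member may also be held at a low level by every thymocyte, postmitotic cells were next set beside the SP-like reference. Of the 21 members with at least 50 steps over both groups, 5 were at or above 2 and none at or under 0.5, beside 7.82% of 4068 genes at or above 2 and 4.79% at or under 0.5. The median ratio was 1.22 for the members and 1.06 for all genes. All 5 had intervals above 1 and are described as remaining, but each reached the minimum only through postmitotic cells, with 46 to 97 steps there and 6 to 11 in SP-like cells, so the count does not measure how many members remain. They were Ccnb2 at 4.97 (2.42 to 11.8), Cenpf at 3.55 (1.53 to 10.1), Cdca3, an adaptor that helps mitotic entry, at 2.36 (1.1 to 5.78), Knstrn at 2.32 (1.13 to 5.37) and Cdca8, borealin of the passenger complex, at 2.24 (1.16 to 4.72). Tpx2, which activates Aurora A on the spindle, and Cenpe, the kinesin motor of the kinetochore, had ratios of 3.59 (1.28 to 13.9) and 3.38 (1.2 to 13.1), on too few steps for the minimum.

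In SP-like cells these genes were near the lowest measurable level. Ccnb2 was above 0 after thinning in 3.42% (1.49 to 6.63%) of SP-like cells, in 12.1% (9.52 to 15%) of postmitotic cells and in 38.5% (35 to 42.2%) of dividing cells. Its deposited log2 value averaged 0.08 ± 0.27 (SD over 234 cells), 0.23 ± 0.59 (SD over 571 cells) and 1.09 ± 0.97 (SD over all dividing cells) in the same order. Cenpf was above 0 in 2.56% (0.947 to 5.5%), 7.88% (5.81 to 10.4%) and 35.6% (32.1 to 39.1%) of these cells. The postmitotic intervals of both genes thus lay between the others, without overlap for Ccnb2 and with a lower bound of 5.81% against an upper bound of 5.5% for Cenpf. In APC-like cells Ccnb2 and Cenpf were each above 0 in 2.78% (0.0703 to 14.5%).

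Smc4, Arl6ip1 and Bub3, highest of all members relative to dividing cells, were within the limit of 2 of SP-like cells. Smc4 had a postmitotic over SP-like ratio of 1.19 (0.998 to 1.43), Arl6ip1 of 0.82 (0.686 to 0.982) and Bub3 of 0.97 (0.731 to 1.3). Smc4 and Arl6ip1 were at 71.4 and 79.9 steps per 100 SP-like cells and at 22.2 and 25 in APC-like cells, whereas Bub3 was at 30.3 and 25. Smc4 also varied within selected cells, at 91.9 steps per 100 cells in DPsel-like cluster 6 and 32 in DPsel-like cluster 5. Arl6ip1 was lower in DPbla-like cluster 9, at 37.6, than in DPre-like clusters 2 and 3, at 68.9 and 79.4, and reached 322 in cluster 11.

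The count of 5 varied with the cells taken and with how many members reached the minimum in them. It was 0 in postmitotic cells with few S phase steps, with Ccnb2 at 2.99 (1.35 to 7.54) and Knstrn at 1.29 (0.528 to 3.34). It was 1 where Mki67 was also required to be 0, with Ccnb2 at 3.18 (1.5 to 7.73), and with 15 members above the minimum. There Cenpf was at 2.59 (1.07 to 7.56), while Cdca3, Knstrn and Cdca8 were below 2, the lowest being Cdca8 at 1.84 (0.933 to 3.96). It was also 1 in postmitotic cells of DPre-like clusters alone, where 11 members reached the minimum, but there all 5 kept ratios above 2, from 2.16 (1.07 to 4.72) for Cdca8 to 4.76 (2.26 to 11.6) for Ccnb2 and 4.76 (2.01 to 13.7) for Cenpf. Among these cells, all 5 had intervals above 1 in cluster 10. In clusters 2 and 3 the intervals held 1, except that of Ccnb2 in cluster 2. Cdca8 was at 6.75 (3.08 to 15.6) in cluster 10, 1.42 (0.54 to 3.68) in cluster 2 and 0.812 (0.221 to 2.53) in cluster 3. The count was 5 without the 5% of cells with the most genes in each cluster, taken as possible doublets, with Ccnb2 at 5.04 (2.46 to 12). Another random thinning gave 2, with Ccnb2 at 2.93 (1.63 to 5.71), Cenpf at 2.31 (1.08 to 5.66), Knstrn at 1.73 (0.953 to 3.35), Cdca3 at 1.55 (0.849 to 3.03) and Cdca8 at 1.34 (0.738 to 2.57). Thinning to 1000 steps also gave 2, with Ccnb2 at 5.66 (2.31 to 18), Knstrn at 2.19 (1.06 to 5.07), Cdca8 at 2.0 (0.92 to 4.95), Cenpf at 1.84 (0.843 to 4.59) and Cdca3 at 1.13 (0.588 to 2.33). Of the 5, only Ccnb2 kept an interval above 1 in each of the 12 settings (the main one included) for which ratios by gene were computed.

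The postmitotic cells were not uniform. The 344 cells in DPre-like clusters comprised 63 of cluster 10, led by Lgals1, Cd8b1 and Ly6d, 150 of cluster 2 and 131 of cluster 3. Summed member steps were 9.56 per cell in cluster 10, 4.48 in cluster 2 and 4.4 in cluster 3, beside 4.62 in the SP-like reference. Depth differed little, with medians of 2103, 1837, 1945 and 2212 steps before thinning. This comparison was added with the values known, and a cluster set beside others is a description. Of 10 members with at least 50 steps, 5 were at or above 2 in cluster 10 over clusters 2 and 3 and none at or under 0.5, beside 2.69% of 1899 genes at or above 2 and 7.74% at or under 0.5. These 5, Cenpa, Ccnb2, Birc5, Cks2 and Cks1b, reached the minimum only through cluster 10, where they are high, so the count does not measure how many members stood higher there.

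In cluster 10, some members stood near their level in dividing cells and others were nearly gone. Cenpa was above 0 after thinning in 49.2% (36.4 to 62.1%) of the 63 postmitotic cells, against 44.9% (41.3 to 48.5%) of dividing cells, 10.0% (5.71 to 16%) in cluster 2, 13% (7.74 to 20.0%) in cluster 3 and 14.5% (10.3 to 19.7%) of SP-like cells. Ccnb2 was above 0 in 34.9% (23.3 to 48%) of cluster 10, 9.33% (5.2 to 15.2%) of cluster 2 and 4.58% (1.7 to 9.7%) of cluster 3. Both genes thus had overlapping intervals in cluster 10 and dividing cells, and clusters 2 and 3 both overlapped the SP-like reference. As a ratio of steps, however, Ccnb2 in cluster 2 over SP-like cells was 2.92 (1.16 to 7.97). Knstrn was above 0 in 20.6% (11.5 to 32.7%) of cluster 10 against 18.3% (15.6 to 21.3%) of dividing cells, and Cenpf in 31.7% (20.6 to 44.7%) against 35.6%.

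**Figure D4:**
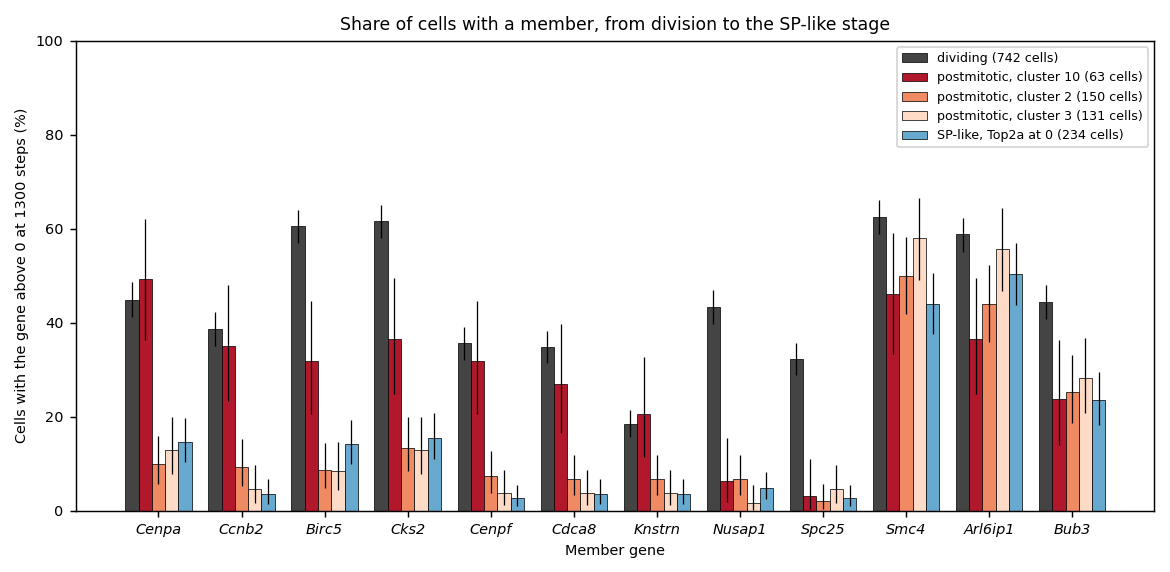
Percent of cells with a member above 0 at 1300 steps, for 12 members, in dividing cells, postmitotic cells of DPre-like clusters 10, 2 and 3, and SP-like cells with Top2a at 0, with exact binomial 95% intervals as error bars. The intervals of Cenpa, Ccnb2, Cenpf and Knstrn overlap between dividing cells and cluster 10, Nusap1 and Spc25 are low in every group but dividing cells, and Smc4, Arl6ip1 and Bub3 are held in all groups.

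As ratios of steps per cell, cluster 10 over dividing cells, Knstrn was at 1.17 (0.653 to 1.96), Cenpa at 1.07 (0.80 to 1.4), Tpx2 at 1.0 (0.561 to 1.67) and Ccnb2 at 0.861 (0.592 to 1.21), with intervals that hold 1, whereas Cenpf, at 0.647 (0.414 to 0.968), was below its dividing level. Hmmr, a spindle assembly factor, was at 0.707 (0.317 to 1.38), on 9 steps. It had 0 steps in the 281 postmitotic cells of clusters 2 and 3. With a floor of 3 steps over that group Hmmr was 13.4-fold higher in cluster 10, and the exact interval of that ratio began at 8.8. At the other end, Spc25 was at 0.0685 (0.00826 to 0.249), Nusap1 at 0.0829 (0.0225 to 0.214) and Ccna2 at 0.114 (0.031 to 0.295). The intervals of these 3 lie wholly below those of Knstrn, Cenpa, Tpx2 and Ccnb2. Ube2c was at 0.201 (0.122 to 0.312), while Birc5, Cks2 and Cks1b lay between, at 0.39 (0.264 to 0.558), 0.354 (0.24 to 0.506) and 0.466 (0.296 to 0.70).

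Of the 63 cells, 27% had Mki67 above 0. The 46 cells with Mki67 also at 0, a member that is then 0 by choice, held 8.76 member steps per cell, with a median of 5 members and 56.5% of cells at 5 or more. The 32 cells of cluster 10 with Top2a above 0 held 18.8 steps per cell of members other than Top2a. Over all 99 cells of cluster 10, whatever their Top2a, Cenpa was at 106 and Ccnb2 at 87.9 steps per 100 cells, while Nusap1 was at 13.1 and Ccna2 at 8.08. Of these 99 cells, 63 are the postmitotic ones above. The 12 markers of the DPbla list, 0 of them absent, summed to 14 steps per postmitotic cell in cluster 10, against 7.78 in all postmitotic cells and 6.21 in the SP-like reference. The part of doublets with blasts in the values of cluster 10 was not tested.

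The members were also compared by S phase content among all 903 cells with Top2a above 0, most of them DPbla-like or ISP-like, with 77 cells of unnamed clusters, mainly cluster 14 with few S phase steps (2.1 per cell), and 90 DPre-like, 49 DPsel-like, 36 CD4sp-like, 34 CD8sp-like and 6 APC-like cells among them. They were split at the median of 7 summed steps of S phase genes into 451 S-rich and 452 S-poor cells, with 189 cells within 2 steps of the cut. S-rich cells were deeper before thinning, with a median of 6054 steps against 3825.5. Of 52 members with at least 50 steps, 2 had an S-poor over S-rich ratio at or above 2 and 1 at or under 0.5, beside 5.16% and 4.18% of 4190 genes. The count at or above 2 was 6 between the cells highest and lowest in S phase steps and 1 with another random thinning. The median ratio was 0.937 for the members and 1.03 for all genes. Of all members, 10 had an interval above 1 and 13, Top2a among them, an interval below 1. The share of all genes with such intervals was not computed.

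Kif2c, the kinesin that removes tubulin at centromeres, was highest at 3.58 (1.85 to 7.45), on 43 and 12 steps, so that it reached the minimum only through S-poor cells, followed by Cdc20, the activator of the anaphase promoting complex, at 2.39 (1.88 to 3.06), with 232 and 97 steps. Cenpa was at 1.93 (1.65 to 2.27), Arl6ip1 at 1.79 (1.59 to 2.02), Ube2c at 1.64 (1.46 to 1.84) and Ccnb2 at 1.62 (1.36 to 1.95). At the low end were Ncaph, a condensin subunit, at 0.328 (0.193 to 0.537), Smc2 at 0.617 (0.51 to 0.744), Mad2l1, the checkpoint protein Mad2, at 0.631 (0.465 to 0.852) and Mki67 at 0.655 (0.534 to 0.80). The order differed from that after division. Cenpa and Ccnb2 were high in both, whereas Ube2c, high among S-poor Top2a-positive cells, was at 0.201 of its dividing level in cluster 10.

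**Figure D5:**
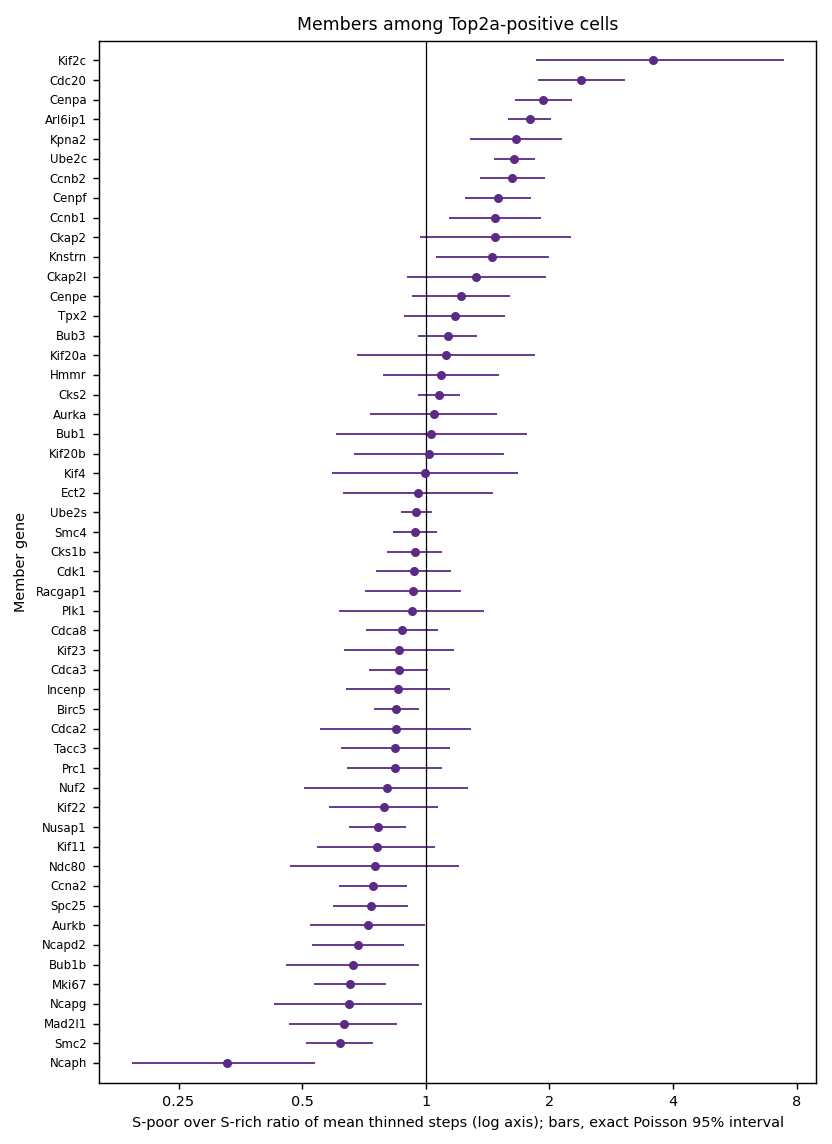
Ratio of mean thinned steps, S-poor over S-rich cells, on a log axis for the 52 members with at least 50 steps among 903 Top2a-positive cells, with exact Poisson 95% intervals. Kif2c and Cdc20 lie above 2, with lower bounds just under it, and Ncaph lies below 0.5.

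Over the 903 cells, the 1485 pairs of members had a median Pearson r of 0.14 on log2(steps + 1), between -0.05 and 0.58. These points share 1 library, and the depth is fixed by thinning. The highest pair was Arl6ip1 with Ube2c at 0.582, followed by Ube2c with Cenpf at 0.531 and Cks2 with Ube2c at 0.53.

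Other genes of mitosis, kinetochore and cohesion followed the members less closely. Of 105 such genes in the table, 87 had enough steps, of which 56 had a postmitotic over dividing ratio at or under 0.5, 31 lay between and none was at or above 2, beside the same 7.72% and 6.77% of all genes and with the same limits from the split on Top2a, at a median of 0.334. Among the lowest were Esco2, the cohesin acetyltransferase, at 0.0606 (0.024 to 0.128) and Knl1, the kinetochore scaffold, at 0.0812 (0.0364 to 0.159). Highest were Anapc4, a subunit of the anaphase promoting complex, at 1.46 (0.818 to 2.6), Pttg1, securin, at 1.37 (0.931 to 2.02) and Ensa, an inhibitor of protein phosphatase 2A in mitosis, at 1.36 (0.947 to 1.96). Of 28 S phase genes with enough steps, 26 were at or under 0.5, beside 7.72% of all genes, with a median of 0.198. Of 11 genes of quiescence and G1 exit, 4 were at or above 2 and 1 at or under 0.5, again beside 6.77% and 7.72% of all genes. The former included Btg1, an antiproliferative gene, at 2.33 (2.13 to 2.55), which was at 100.1 steps per 100 dividing cells and at 214 to 278 in postmitotic cells of the 3 DPre-like clusters. Klf2, a quiescence factor of mature T cells, was at 3.5 (2.37 to 5.29) over all postmitotic cells, but at 2.29 to 3.17 steps per 100 cells in those of DPre-like clusters, below the 4.85 of dividing cells, and at 143 in the SP-like reference.

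In mitotic genes, CCAAT boxes bound by the factor NF-Y and the cell cycle homology region read by the MuvB complex are known promoter elements. Sequences are shown for 3 of the 5 members at or above 2 over SP-like cells and for 3 more of the 10 with an interval above 1 in S-poor over S-rich cells, as 120 bases from RefSeq (build GRCm38.p6) on the strand of the gene that lie before its start and outside annotated exons, with matches to either motif in capitals.
Ccnb2, chr9:70421555-70421674, minus strand: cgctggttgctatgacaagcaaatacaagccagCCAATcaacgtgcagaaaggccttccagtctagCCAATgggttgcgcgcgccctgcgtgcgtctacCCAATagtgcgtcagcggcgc
Cenpf, chr1:189688087-189688206, minus strand: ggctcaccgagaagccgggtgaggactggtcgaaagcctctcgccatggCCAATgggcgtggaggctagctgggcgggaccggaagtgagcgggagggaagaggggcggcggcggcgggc
Knstrn, chr2:118813883-118814002, plus strand: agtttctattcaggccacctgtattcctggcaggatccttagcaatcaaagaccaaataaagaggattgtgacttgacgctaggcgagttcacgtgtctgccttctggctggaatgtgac
Cdc20, chr4:118437353-118437472, minus strand: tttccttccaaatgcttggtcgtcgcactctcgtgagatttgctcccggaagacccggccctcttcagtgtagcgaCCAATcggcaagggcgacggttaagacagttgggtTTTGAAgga
Cenpa, chr5:30666657-30666776, plus strand: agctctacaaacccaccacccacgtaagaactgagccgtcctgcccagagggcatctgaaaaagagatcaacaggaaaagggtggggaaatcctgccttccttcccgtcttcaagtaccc
Ube2c, chr2:164769778-164769897, plus strand: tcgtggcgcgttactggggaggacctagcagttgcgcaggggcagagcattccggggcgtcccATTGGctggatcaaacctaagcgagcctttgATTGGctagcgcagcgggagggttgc

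Ccnb2 held 3 CCAAT boxes within 120 bases, Ube2c 2, and Cenpf and Cdc20 1 each, while neither motif was found for Knstrn or Cenpa in these bases, which end 109 bases before the start for Cenpa, 31 for Ube2c and 9 for Cdc20. Counted over the 250 bases before the start, Ube2c held 6 CCAAT boxes, Ccnb2 3, Cenpa, Cenpf and Cdc20 2 each, and Knstrn 0. Over the 250 bases before the start, CCAAT or its reverse complement was found for 36 of 48 members, 75% (60.4 to 86.4%), beside 37.5% of 27025 genes. At least 2 copies were found for 25 of 48 members, 52.1% (37.2 to 66.7%), beside 11.5% of 27025 genes. The motif TTTGAA or its reverse complement, a common form of the cell cycle homology region, was found for 19 of 48 members, 39.6% (25.8 to 54.7%), beside 18.3% of 27025 genes. The other 7 members were not in the promoter table. Each motif was searched on its own, so matches may share a base, and a match describes the letters, not a bound site.

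Summed over the members, open chromatin at their start sites differed little between sorts. Of the 55 members, 54 had a 4000-base peak over the start of the gene, beside 60.2% of 21924 protein-coding genes. Counts in the 148 member peaks were 30.9 per 10000 counts in peaks in 182 DN cells, 34.2 in 125 DP cells, 30.1 in 119 CD4 cells and 31.4 in 116 CD8 cells. DP over SP was 1.11 (1.05 to 1.18) for the members and 1.05 (1.04 to 1.05) for all genes. DN over DP was 0.902 (0.85 to 0.957) for the members and 0.998 (0.993 to 1.0) for all genes. Peaks over the same start overlap, so a fragment may be counted more than once, and these intervals are then too narrow even for counting error. Cells carry label numbers in 2 ranges, and within those from 31000, with 29 DP cells, DP over SP was 0.977. By member, Hmmr was highest in DP over SP at 2.69 (1.38 to 5.32), with 22 counts in DP and 18 in SP cells, Arl6ip1 was at 1.89 (1.26 to 2.82), Ccnb2 at 1.26 (0.457 to 3.21) and Cenpa at 0.621 (0.368 to 1.01). In DN over DP the members ran from 0.377 (0.117 to 1.19) for Ccnb2 to 3.88 (1.19 to 20.0) for Aurkb, with 27 and 3 counts.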

How the data were processed

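Per the labels and methods, the authors prepared 1 droplet 3′ scRNA-seq library, aligned it with Cell Ranger 1.3.1 to GRCm38.p5, filtered cells and genes, quantile-normalized the cells and deposited log2 values with zeros kept at 0. For scATAC-seq the authors deposited counts per cell in 138317 peaks of 4000 bases. The build of the peaks is not given in the sources used here, and starts were taken from GENCODE vM21 on GRCm38. A further 1446 cells, of total thymocytes or with an unclear sort, were not used.

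Steps, from 1356 to 22539 per cell with a median of 2558, are ranks and understate abundant genes, so Poisson intervals on them are approximate. Clusters came from Seurat 5.3.0 (R 4.3.3), run on 1275 variable genes without members (20 principal components, 30 neighbors, resolution 2), which gave 16 clusters named by the highest mean z score of marker lists. Rules set after seeing the clusters left 2 unnamed: 69 cells with a score margin under 0.1 and 67 cells led by members and not scored as blasts, which held 8 and 1 of the postmitotic cells. Doublets were not called, and an alternative left out the 5% of cells with the most genes in each cluster. Ratios used Python 3.11 with numpy and scipy, were tested on simulated data, and were read at 2-fold among genes with at least 50 steps. With 1 library, no p-value was computed. Named were the 6 highest and 6 lowest members after division, those that remain, 3 per role group and the ends of the related list, of which 1 gene is not reported here. Others that are named were chosen after their values were seen. The members and lists were chosen with earlier results of these data known.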

Additional observations from a re-analysis of the deposited data

How the results depend on the processing

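The number of members at or under 0.5 in postmitotic over dividing cells, 51, stayed within 1.5 times of that under all 15 alternatives tried, at 35 to 53, where 35 of 51 members with enough steps came from postmitotic cells of cluster 10 alone. The number at or above 2 over the SP-like reference, 5, was less stable. It was 2 after thinning to 1000 steps, 2 with a second random seed, 3 with Dntt above 0, 3 with Dntt above 2, 1 with Mki67 also at 0, 1 in DPre-like clusters alone, 0 in cells with few S phase steps, 8 with a minimum of 20 steps, 14 with no minimum and 2 at 3-fold. Fewer cells leave fewer members above the minimum of 50 steps, and at the other settings the cause was not tested. Leaving SP-like cells with Dntt above 1 out of the reference, an alternative added after seeing the data, gave 5. The ratio of member steps in DPbla-like over DPre-like cells, 4.70, was 4.50 without thinning, 4.31 with clusters built with the members, 2.48 at resolution 1 and 5.13 with the unnamed cluster led by members counted as DPbla-like (added after seeing the data). The number at or above 2 in S-poor over S-rich cells, 2, was 1 with a second random seed and 6 when only the cells highest and lowest in S phase steps were compared. The DP over SP ratio of promoter counts, 1.11, was 0.977 in cells with label numbers from 31000. Depth limits the 34 members with under 10 steps in the SP-like reference, and 1 library gives no spread between animals.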
